A study of Mus musculus with 20 samples.

Results

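Dhrs3, the gene of a retinal reductase, had fewer reads in the aorta of mice given higher doses of gamma rays, and it was set beside 8 further genes of retinoid metabolism: Rdh10, Aldh1a1, Aldh1a2, Cyp26b1, Rara, Rarb, Rarg and Stra6. These 9 genes were chosen from the gene symbols of a table of 21078 genes because of that gamma pattern of Dhrs3, so its gamma values are given as a description with no test. RNA was sequenced from the aorta of wildtype male C57BL/6 mice aged 10 to 12 weeks. Of 20 mice, 10 were exposed over the whole body to high energy protons and 10 to gamma rays, at 0, 5, 10, 25, 50, 75, 100, 125, 150 and 200 cGy, and all were killed 4 h later. A dose and radiation type met in 1 mouse only, the mice at 0 cGy were the unirradiated controls, and tests therefore rest on the scatter of mice about a trend, with no replicate of a dose. Each mouse had between 6051657 and 6058006 sense reads in genes.

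Vitamin A circulates as retinol and enters cells by diffusion or through the receptor encoded by Stra6. Rdh10 oxidizes retinol to retinal, Dhrs3 reduces retinal back to retinol, and the retinal dehydrogenases Aldh1a1 and Aldh1a2 turn retinal into retinoic acid. Retinoic acid binds the receptors Rara, Rarb and Rarg, which act on DNA as pairs with retinoid X receptors, and Cyp26b1 removes it by oxidation. Dhrs3, Cyp26b1, Rarb and Stra6 are themselves induced by retinoic acid in many cells, so that their transcripts are often read as an output of the pathway, and in the vessel wall retinoids act on smooth muscle growth and differentiation.

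The irradiated mice responded to dose in both series. Cdkn1a, the p53 target that halts the cell cycle, had 345 and 366 counts in the unirradiated mice of the proton and gamma series and 2777 and 2937 counts at 200 cGy. Its log2 slope was 1.39 per 100 cGy of protons (SE 0.22, edgeR adjusted p = 0.00518) and 1.60 in the gamma series (SE 0.24, edgeR adjusted p = 0.00214), and Mdm2, which encodes the ligase that degrades p53, rose by 0.40 and 0.42 (edgeR adjusted p = 1.3e-04 for both). Smooth muscle markers were abundant in every mouse. The proton mouse at 75 cGy stood apart, with 2993 CPM (counts scaled to library size) in the summed heart muscle markers against 10.6 to 57.8 in the other mice, and also had the highest sums of brown and white fat markers, 2150 and 6396 CPM. The 4 mice at 150 and 200 cGy shared another property: the deviation of a gene from its mean correlated with its GC content at r between -0.40 and -0.348 in these libraries, against -0.018 to 0.283 in the other 16, across 9702 genes, which are not independent replicates. High dose and this library property cannot be told apart by comparing those groups, so slopes are also given over 0 to 125 cGy and, for some genes, after correction for GC content and gene length.

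Retinoic acid receptors bind direct repeats of a unit of 6 bases. Windows from 250 bases before to 50 bases after RefSeq gene starts (assembly GRCm38.p6) were available for 8 of the 9 genes and were searched on both strands for a pair of such units spaced by 2 or 5 bases. A unit was AGGTCA, the form AGTTCA that differs in the middle, or the same 2 forms with G as the first base (GGGTCA as well as GGTTCA). Of 32851 windows of all genes, 0.268% held a pair spaced by 2 bases and 0.0974% a pair spaced by 5. Of the retinoid genes, Rarb alone had a match, with a spacing of 5 bases, from 53 to 37 bases before its start. The windows of Dhrs3 (mm9 chr4:144482480-144482779, plus strand), Cyp26b1 (chr6:84543755-84544054, minus strand) and Rarb (chr14:17407941-17408240, minus strand) are shown because these genes respond to retinoic acid in many cells and their counts are compared most closely here. The Rarb window lies 243391 bases inside the annotated gene from its first base. Capitals mark the 17 bases of the Rarb match, and the absence of these letters from the other windows says nothing of receptor binding.
Dhrs3: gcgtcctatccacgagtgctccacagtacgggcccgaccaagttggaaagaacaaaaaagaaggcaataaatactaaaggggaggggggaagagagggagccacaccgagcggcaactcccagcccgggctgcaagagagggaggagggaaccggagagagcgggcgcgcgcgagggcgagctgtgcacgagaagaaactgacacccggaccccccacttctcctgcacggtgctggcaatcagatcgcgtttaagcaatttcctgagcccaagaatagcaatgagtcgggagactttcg
Cyp26b1: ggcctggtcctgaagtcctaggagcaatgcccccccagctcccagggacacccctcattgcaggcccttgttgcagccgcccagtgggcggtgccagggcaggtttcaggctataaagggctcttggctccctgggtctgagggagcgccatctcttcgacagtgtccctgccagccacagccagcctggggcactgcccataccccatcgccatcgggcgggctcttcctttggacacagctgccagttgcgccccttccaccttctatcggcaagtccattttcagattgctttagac
Rarb: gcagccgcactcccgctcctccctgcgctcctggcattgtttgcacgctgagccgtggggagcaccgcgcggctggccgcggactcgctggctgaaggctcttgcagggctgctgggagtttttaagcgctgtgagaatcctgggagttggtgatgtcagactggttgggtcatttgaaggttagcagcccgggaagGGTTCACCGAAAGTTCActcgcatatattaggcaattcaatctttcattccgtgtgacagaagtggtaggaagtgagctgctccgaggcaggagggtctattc

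Corrected for gene length, Dhrs3 was the most abundant of the 9 genes, with a mean of 68.3 RPKM (reads scaled to exon length and library size) over the 20 mice and a range of 42.0 to 109. Aldh1a1 followed at 19.7 RPKM (9.73 to 31.9) and Rarg at 18.6 RPKM (11.9 to 25.3). The ranges of these neighbours overlapped, whereas no mouse had less Dhrs3 than the highest Aldh1a1. Cyp26b1 had a mean of 5.89 RPKM (3.59 to 11.6), Rarb 4.91 (2.46 to 10.8), Rdh10 4.11 (3.17 to 5.12) and Rara 3.98 (1.84 to 7.47). These 4 overlapped throughout, and all 4 lay under the lowest mouse for Rarg. Aldh1a2 averaged 0.514 RPKM and was at 0 counts in 7 mice, and Stra6 averaged 0.035 RPKM and was at 0 in 10 mice. A count of 0 allows up to 3 counts, or 4.95e-05% of a library, for counting error only. Rarg, the receptor known from epithelia and mesenchyme, was thus the most abundant of the 3 retinoic acid receptor transcripts on the RPKM scale.

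Dhrs3 (ENSMUSG00000066026, mm9 chromosome 4, 144482730 to 144518112) had 1352 counts in the unirradiated gamma mouse and 1926, 1451, 1551, 1292, 1096, 887, 768, 970 and 745 counts from 5 to 200 cGy in order of dose. The 4 gamma mice at 0 to 25 cGy held between 1352 and 1926 counts and the 5 at 75 to 200 cGy between 745 and 1096, so these did not overlap. Proton mice of the same doses were apart as well, with 1180 to 1612 against 960 to 1105 counts. The gamma split describes values that chose the gene, and how many of all genes were apart in this way was not counted. The gamma mouse at 5 cGy differed from the unirradiated gamma mouse by 42.5% and the gamma mouse at 200 cGy by -44.9%. The proton mice had 1612 counts at 0 cGy and 1557, 1417, 1180, 1271, 1105, 1020, 960, 996 and 1061 counts from 5 to 200 cGy. Among them the unirradiated mouse was highest, the lowest count was reached at 125 cGy, and the mice at 150 and 200 cGy differed from the unirradiated mouse by -38.2% and -34.2%. In both series the counts at 125 cGy were already at or near the level of the highest dose.

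**Figure D1:**
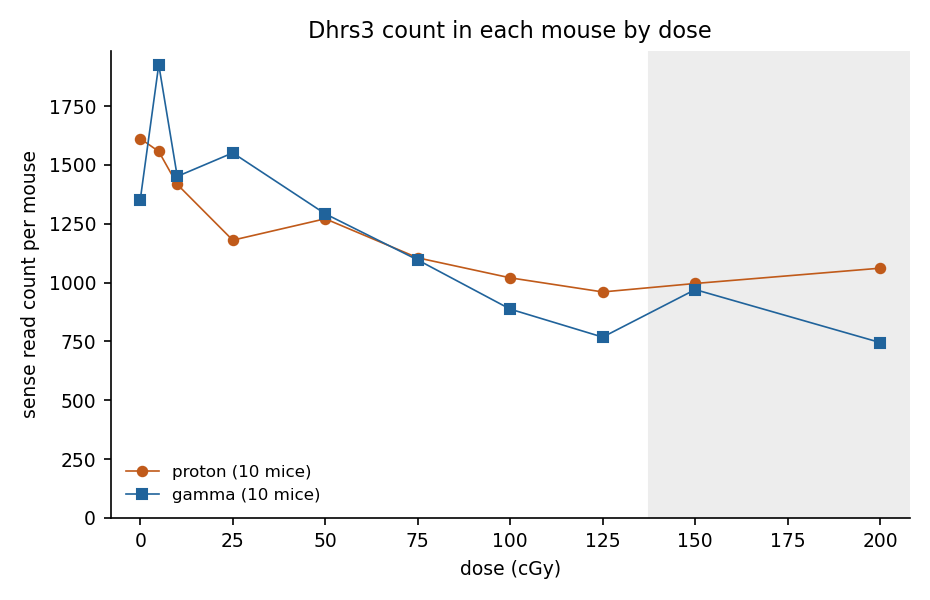
Sense read counts of Dhrs3 (y axis) against dose in cGy (x axis), 1 point per mouse, circles for proton and squares for gamma mice, with the 4 mice at 150 and 200 cGy on a grey ground. Counts run from 1612 to 1061 in the proton series and from 1352, through 1926 at 5 cGy, to 745 in the gamma series.

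The log2 slope of Dhrs3 on gamma dose was -0.61 per 100 cGy (SE 0.10), a difference of -34.5% per 100 cGy. It was -0.91 (SE 0.13) over 0 to 125 cGy alone. Both gamma slopes describe values that chose the gene, and their SE does not allow for that choice. The proton mice were not those whose values chose the gene, although earlier results of these data were known at that choice. In the proton mice the slope was -0.32 per 100 cGy (SE 0.09, 95% interval -0.51 to -0.12). It did not pass the adjusted p of 0.1 in edgeR's quasi-likelihood test (p = 0.00272, adjusted p = 0.117). It passed in DESeq2 (adjusted p = 0.0584) and, in edgeR, without the proton mouse at 75 cGy (adjusted p = 0.074). Without the gamma mouse at 5 cGy, which enters through the shared spread, the adjusted p was 0.0895. Corrected for GC content and length, the proton slope came to -0.28 (edgeR adjusted p = 0.397). Over 0 to 125 cGy the proton slope was -0.57 (SE 0.12, edgeR adjusted p = 0.172, DESeq2 adjusted p = 0.0048), and edgeR's adjusted p was 0.0467 or 0.0784 without the gamma mouse at 0 or 5 cGy. By ranks, the proton counts had a Spearman rho with dose of -0.903 (exact two-sided permutation test, p = 8.1e-04, adjusted p = 0.244), and -0.976 over 0 to 125 cGy (exact permutation adjusted p = 0.58). The gamma rho was -0.879. The proton minus gamma slope was 0.29, and 0.14 without the proton mouse at 200 cGy. It is given without a test or interval, because the gamma values that chose the gene enter it. At matched dose the proton mice had 0.04 more Dhrs3 on the log2 scale than the gamma mice, given without a test or interval for the same reason. In bulk tissue, fewer cells of a type and less RNA per cell cannot be told apart. The summed fibroblast markers Pdgfra, Dcn, Lum, Col1a1 and Dpt, of which 5 of 5 had a mean count of 5 or more, were also low at the highest doses. They came to 2352 and 2747 CPM in the proton mice at 150 and 200 cGy against 2979 to 5227 at lower doses, and to 1645 and 3026 CPM in the gamma mice against 2657 to 5196, so that the proton groups were apart and the gamma groups overlapped. The highest proton sum, 5227 CPM, was that of the mouse at 125 cGy, which had the lowest proton count of Dhrs3, 960. The highest gamma sum, 5196 CPM, was that of the unirradiated mouse, and the gamma mouse at 100 cGy had 4889 CPM beside 887 counts of Dhrs3. The part of the fibroblast sum in the slopes of Dhrs3 and the other members was not tested.

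Cyp26b1 (ENSMUSG00000063415, chromosome 6, 84521938 to 84543740), the enzyme that clears retinoic acid, fell with gamma dose. The gamma mice had 171 counts at 0 cGy and 201, 198, 225, 159, 177, 149, 110, 116 and 100 counts from 5 to 200 cGy. The 3 lowest counts were those at 125, 150 and 200 cGy, and the highest was at 25 cGy. The slope was -0.54 per 100 cGy (SE 0.15, 95% interval -0.85 to -0.24, edgeR adjusted p = 0.0485), or -31.4% per 100 cGy. The call was lost without the gamma mouse at 150 cGy (adjusted p = 0.163) or at 200 cGy (adjusted p = 0.251) and after correction for GC content and length (slope -0.48, adjusted p = 0.136), all in edgeR. Over 0 to 125 cGy the slope had about the same size, -0.59, with a wider interval of -1.13 to -0.05 (edgeR adjusted p = 0.75).

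In the proton series Cyp26b1 followed another course. The unirradiated mouse had 323 counts and the 9 irradiated mice between 125 and 184, so the difference lay between that 1 mouse and all others and not along the dose. The proton slope was -0.24 (SE 0.14, edgeR adjusted p = 0.485) and became -0.003 without the unirradiated mouse and -0.42 without the mouse at 200 cGy. It was -0.54 over 0 to 125 cGy (SE 0.24, edgeR adjusted p = 0.982). The proton minus gamma slope was 0.31 (95% interval -0.11 to 0.72, edgeR adjusted p = 1), and it was 0.54 without the unirradiated proton mouse, 0.12 without the proton mouse at 200 cGy and 0.05 over 0 to 125 cGy, so a difference between the radiation types was not shown. Over the 10 gamma mice the log2 CPM of Cyp26b1 and Dhrs3 had a Pearson r of 0.900, and over the 10 proton mice 0.601. These are descriptions over mice that share a dose series and a library property at 150 and 200 cGy.

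**Figure D2:**
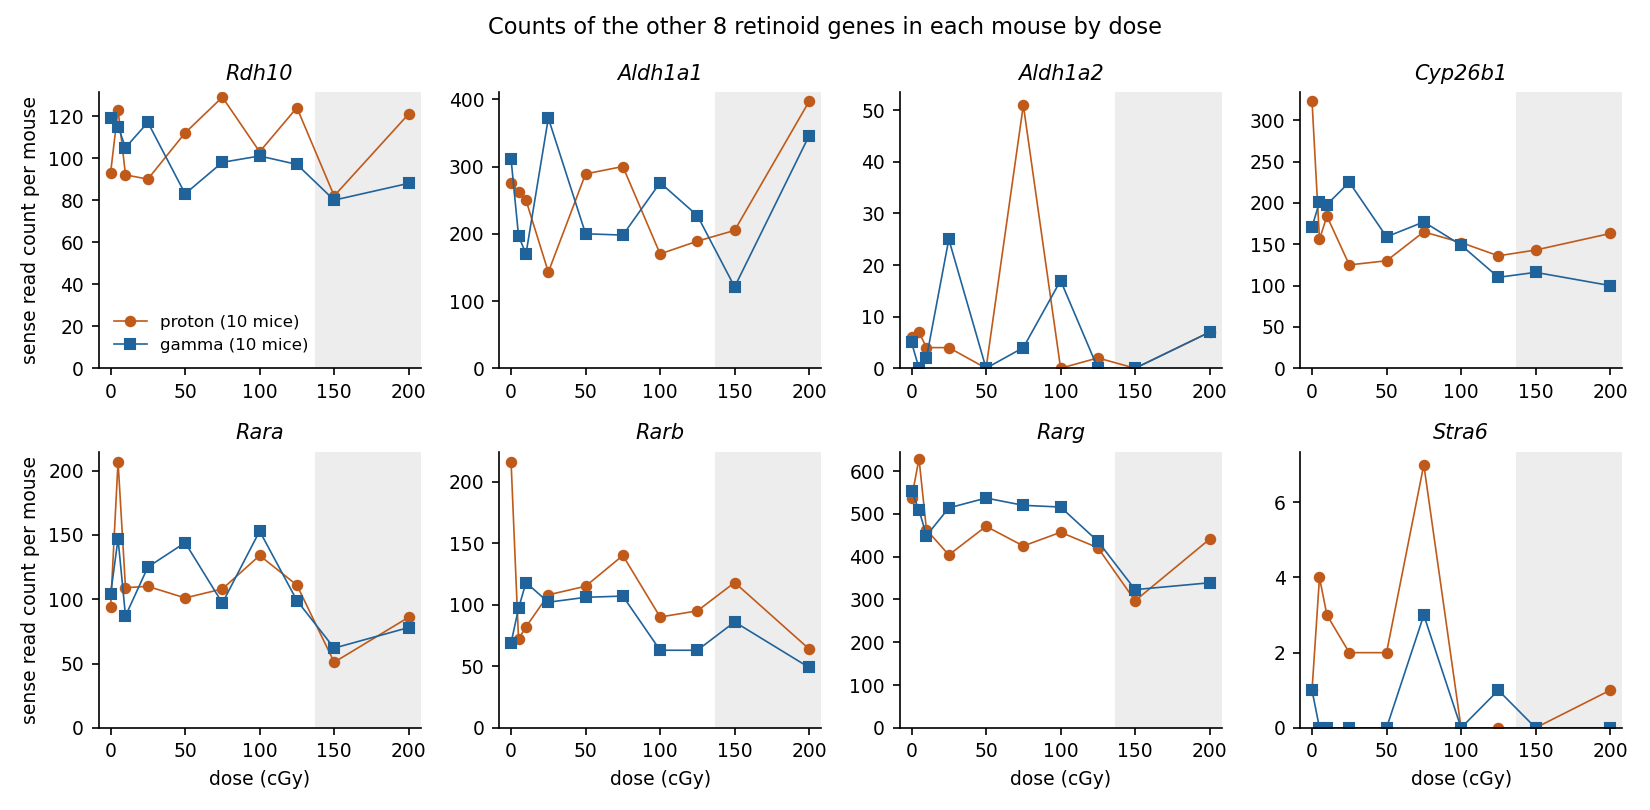
Sense read counts (y axes, each from 0) of 8 retinoid genes against dose in cGy (x axes), 1 point per mouse, circles for proton and squares for gamma mice, with 150 and 200 cGy on a grey ground. Cyp26b1 runs from 171 to 100 counts with gamma dose, Rarg is lowest at 150 cGy in both series with 297 and 323 counts, and Aldh1a2 rises above 7 counts in 3 mice.

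Of the retinoic acid receptors Rarg fell with gamma dose, and its low counts lay at the highest doses. Rarg (ENSMUSG00000001288, chromosome 15, 102065369 to 102087948) had 554 counts in the unirradiated gamma mouse, between 436 and 537 counts in the gamma mice at 5 to 125 cGy, and 323 and 339 counts at 150 and 200 cGy. The proton mice had 536 counts at 0 cGy, 404 to 629 counts at 5 to 125 cGy, and 297 and 441 counts at 150 and 200 cGy. The low gamma counts were thus those of the 2 highest doses, since the mouse at 125 cGy, with 436 counts, lay near that at 10 cGy, with 449. The gamma slope of Rarg was -0.32 per 100 cGy (SE 0.10, edgeR adjusted p = 0.0776), and over 0 to 125 cGy it was -0.13 (95% interval -0.40 to 0.13, edgeR adjusted p = 0.98). With the correction for GC content, which is 58.8% in Rarg against a median of 50.4% over the tested genes, the slope was -0.20 (edgeR adjusted p = 0.298). The call was also lost when any of 6 gamma mice was left out, those at 0, 5, 25, 50, 150 and 200 cGy (edgeR adjusted p between 0.102 and 0.398). The proton slope was -0.22 (SE 0.10, edgeR adjusted p = 0.309), and it was -0.41 without the proton mouse at 200 cGy and -0.15 without that at 150 cGy. The proton slope was -0.29 over 0 to 125 cGy and -0.105 with the correction over all doses (edgeR adjusted p = 0.982 and 0.847).

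Rara (GC content 59.2%) had 62 and 78 counts in the gamma mice at 150 and 200 cGy and 87 to 153 in the 8 mice at lower doses. In the proton mice it had 51 and 86 counts at these 2 doses and 94 to 207 at lower doses, so in both series the 2 highest doses held the lowest counts. How many of all genes were apart in this way was not counted. The Rara slopes were -0.34 after gamma rays (95% interval -0.76 to 0.09, edgeR adjusted p = 0.417) and -0.39 after protons (-0.80 to 0.02, adjusted p = 0.414), and -0.02 and -0.18 over 0 to 125 cGy. With the GC content and length correction over all doses they were -0.22 and -0.27 (edgeR adjusted p = 0.696 and 0.766). Without the proton mouse at 5 cGy, which had the 207 counts, the proton slope over all doses was -0.19, and without the gamma mouse at 150 cGy the gamma slope was -0.22. Rarb, with a GC content of 47.9%, had 49 counts at the lowest, a median of 91.5 and 118 at the highest in the gamma mice. In the proton mice the values were 64, 101.5 and 216, and the unirradiated mouse had the 216. The Rarb slopes were -0.42 after gamma rays (95% interval -0.85 to 0.01, edgeR adjusted p = 0.281) and -0.32 after protons (-0.73 to 0.10, adjusted p = 0.54). They were -0.46 and -0.32 over 0 to 125 cGy (edgeR adjusted p = 0.97 and 0.982). Without the unirradiated proton mouse the proton slope of Rarb was -0.05. This mouse thus had the highest proton count of Dhrs3, Cyp26b1 and Rarb alike.

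Rdh10, which makes retinal from retinol and so works against Dhrs3, varied least between mice of the tested members relative to its level. The gamma mice had 80 counts at the lowest, a median of 99.5 and 119 at the highest, and the proton mice 82, 107.5 and 129. The unirradiated gamma mouse was highest and the gamma mouse at 150 cGy lowest, whereas the highest proton count was at 75 cGy. The slope was -0.23 after gamma rays (95% interval -0.43 to -0.03, edgeR adjusted p = 0.199) and 0.08 after protons (-0.12 to 0.28, adjusted p = 0.813). The difference between these slopes was 0.31 (95% interval 0.03 to 0.59, edgeR p = 0.0338, adjusted p = 1) and did not pass the correction over all genes. The slopes of Rdh10 over 0 to 125 cGy were -0.25 and 0.21 and their difference 0.46 (95% interval 0.04 to 0.88, edgeR adjusted p = 1). By ranks, the gamma rho was -0.806 for Rdh10 and for Cyp26b1 alike (exact two-sided permutation test, p = 0.00721, adjusted p = 0.15).

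**Figure D3:**
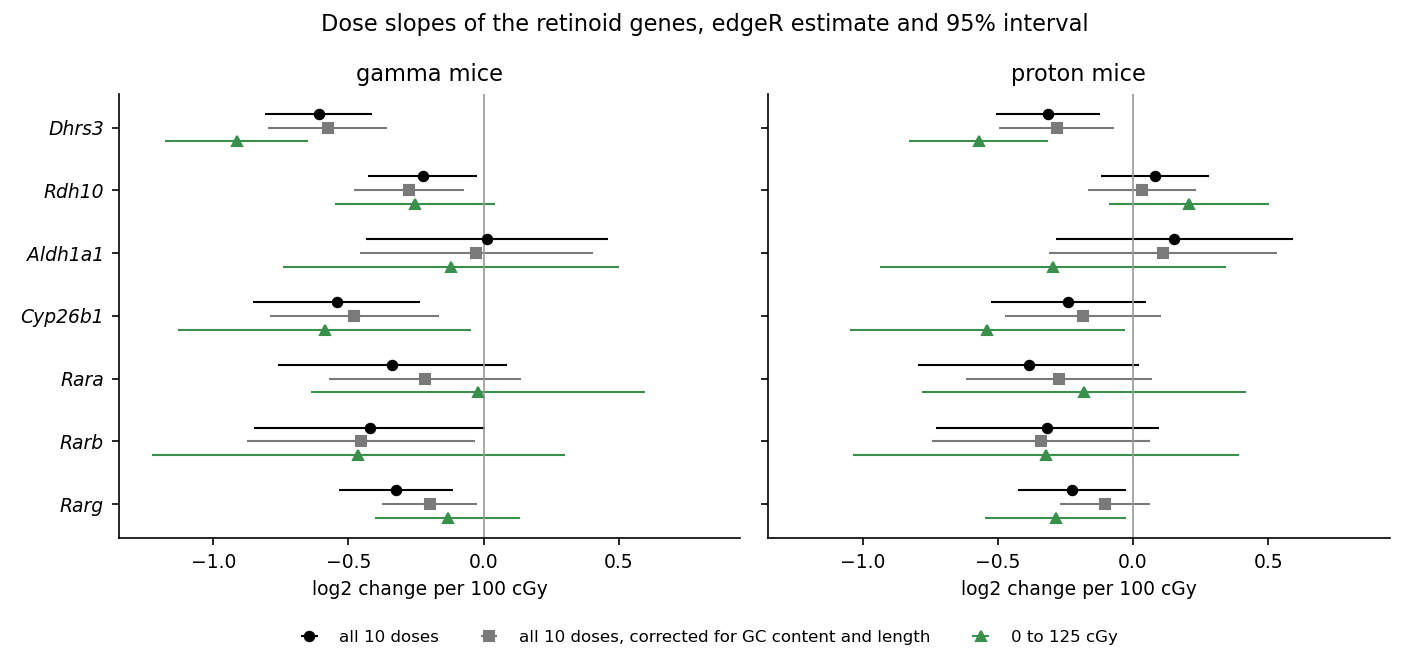
Log2 change per 100 cGy (x axes) of 7 retinoid genes in gamma mice (left) and proton mice (right), with points for the edgeR estimate and bars for its 95% interval, over all doses (black circles), over all doses with the GC content and length correction (grey squares) and over 0 to 125 cGy (green triangles). The gamma estimates of Dhrs3 and Cyp26b1 lie between -0.48 and -0.91 in every fit shown, whereas that of Rarg moves from -0.32 to -0.13 over 0 to 125 cGy. The gamma values of Dhrs3 chose the gene, so its gamma bars are no test.

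The retinal dehydrogenases had no dose slope past the test, and their counts varied widely between mice that also differed in cell type markers. Aldh1a1 had between 121 and 372 counts in the gamma mice (median 213.5) and between 143 and 397 in the proton mice (median 256). The highest proton count and the second highest gamma count were at 200 cGy, and the slopes were 0.01 after gamma rays (95% interval -0.43 to 0.46) and 0.15 after protons (-0.29 to 0.59), with edgeR adjusted p-values of 0.988 and 0.851. They were -0.12 and -0.30 over 0 to 125 cGy (edgeR adjusted p = 0.987 and 0.982). The summed endothelium markers Pecam1, Cdh5, Tek, Tie1 and Vwf had their widest gap between 535 and 693 CPM, with 8 mice below it (3 proton and 5 gamma, 5 to 150 cGy) and 12 above it. The 8 mice below had 121 to 262 counts of Aldh1a1 and the 12 above had 189 to 397. The alcohol dehydrogenases Adh1 and Adh7, which can oxidize retinol, were fully apart, with 64 to 108 against 212 to 595 counts of Adh1 and 17 to 32 against 55 to 235 counts of Adh7. The macrophage markers Cd68, Emr1, Csf1r, Mrc1 and Lyz2 summed to 68.2 to 151 CPM in the 8 mice and 101 to 438 CPM in the 12. These macrophage sums overlapped only through the gamma mouse at 125 cGy, so the split was not particular to endothelium. It was made from the data after they were seen, and how many of all genes were apart across it was not counted. What links the marker sums to Aldh1a1, Adh1 and Adh7 was not tested. Dhrs3 overlapped between the same mice, with 970 to 1926 and 745 to 1612 counts, and with the endothelium markers as a covariate its slopes were -0.59 after gamma rays and -0.30 after protons. How reads that match both Aldh1a1 and its close copy Aldh1a7 were counted, shared or left out, is not given in the sources used here, so the counts of both carry that uncertainty.

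Aldh1a2 was low in most mice and at 0 counts in 7 mice. It had 51 counts in the proton mouse at 75 cGy and at most 7 in the other 9 proton mice, and 25 and 17 counts in the gamma mice at 25 and 100 cGy against at most 7 in the other 8. The summed mesothelium markers Msln, Upk3b, Wt1, Lrrn4 and Upk1b were highest in the same 3 mice, at 89.1, 16.8 and 22.6 CPM, against 0 to 13.4 CPM in the other 17, and 3 of these 5 markers had a mean count of 5 or more. Mesothelial cells line the body cavities and are known for Aldh1a2, and the part of this sum in the Aldh1a2 counts was not tested. The Aldh1a2 slopes had 95% intervals from -2.46 to 1.98 after gamma rays and from -2.44 to 2.09 after protons, so that a change of several-fold in either direction would not have been detectable. Stra6 had 0 to 7 counts in the proton mice and 0 to 3 in the gamma mice, and with a mean count of 1.25 it was left out of the slope tests, which required a mean of 5. The highest Stra6 count of each series was at 75 cGy.

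**Figure D4:**
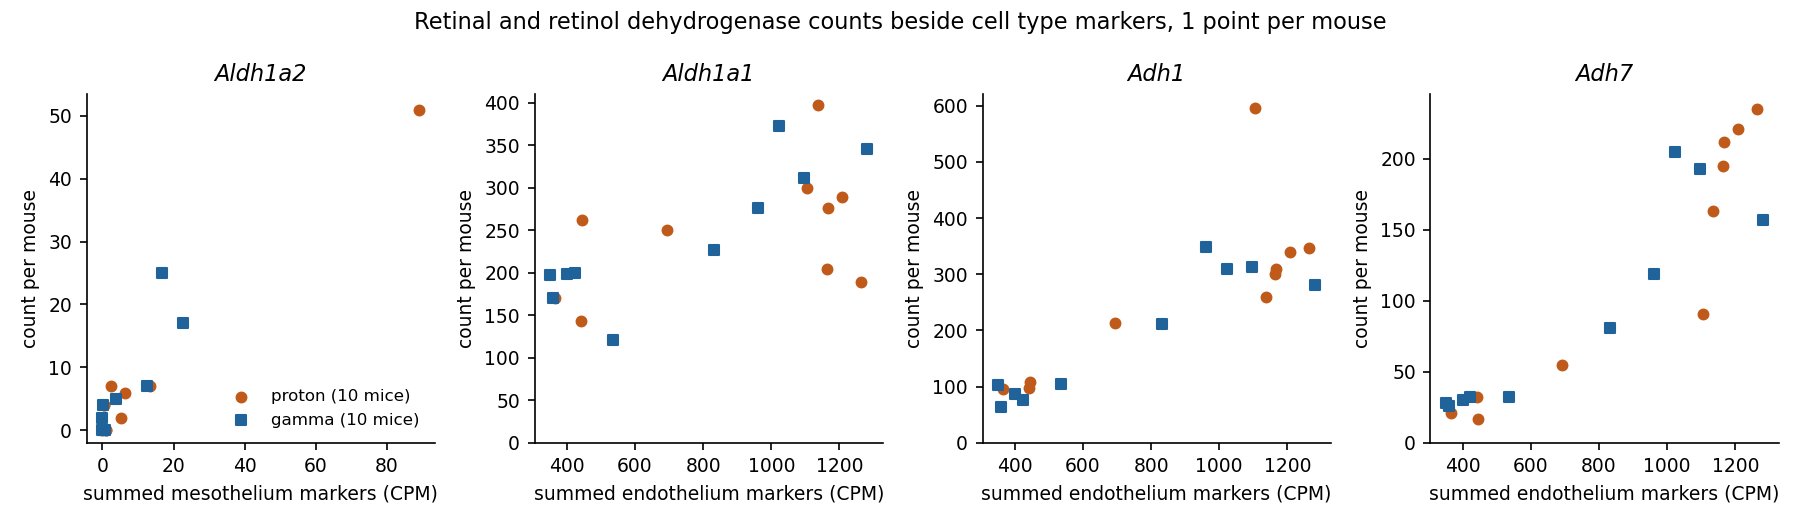
Counts per mouse (y axes) of Aldh1a2 against the summed CPM of 5 mesothelium markers, and of Aldh1a1, Adh1 and Adh7 against the summed CPM of 5 endothelium markers (x axes), 1 point per mouse, circles for proton and squares for gamma mice. The 3 mice with the most Aldh1a2 (51, 25 and 17 counts) have the highest mesothelium sums, and Adh7 has 17 to 32 counts in the 8 mice under 535 CPM of endothelium markers.

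Counted together, 2 of the 7 members tested beside Dhrs3 fell with gamma dose and none rose. Of 13124 genes tested, 7.65% were called after gamma rays, 290 falling and 714 rising. DESeq2 called the same 2, Cyp26b1 and Rarg, and 9.11% of all genes. The median gamma slope of these 7 members, without Dhrs3, was -0.32, against 0.01 over all tested genes, and 6 of the 7 slopes were under 0. Aldh1a2 was among the 6, with a 95% interval from -2.46 to 1.98. The share of all genes with a slope under 0 was not counted. The median of the 7 was -0.13 over 0 to 125 cGy. After protons 0 of 8 members were called in edgeR, where 1.76% of all genes were. Of the 8, Dhrs3 and Rarg had an unadjusted p under 0.05, as 13.3% of all genes had, and 1, Dhrs3, was called in DESeq2, as 2.36% of all genes were. The median proton slope of the 7 without Dhrs3 was -0.22, against 0.002 over all tested genes. Over 0 to 125 cGy 0 of 7 members were called in edgeR after gamma rays and 0 of 8 after protons, where 0.259% and 0.107% of 13144 genes were. Of these, 1 and 3 members had an unadjusted p under 0.05, as 5.95% and 4.56% of all genes had, and DESeq2 called 0 and 1, where it called 0.601% and 0.411% of all genes. The rank test called 0 of 7 members after gamma rays and 0 of 8 after protons, where it called 1.8% and 0.0838% of all genes, with 2 members under an unadjusted p of 0.05 in each series, as were 15.7% and 6.67% of all genes. The slopes of 0 of 7 members differed between the radiation types in edgeR, where 0% of all genes were called, with 1 member, Rdh10, and 1.94% of all genes under an unadjusted p of 0.05, and 0 members and 0% of genes called in DESeq2. At matched dose 0 of the 7 members without Dhrs3 differed in edgeR, where again 0% of genes were called. Here 0 members and 7.86% of all genes were under an unadjusted p of 0.05, and DESeq2 called 0 members and 0.533% of all genes. The largest of these differences was 0.31 more Rarb in proton mice on the log2 scale (95% interval -0.08 to 0.69, edgeR adjusted p = 0.712).

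The wider pathway as reported held 63 genes, 54 of them no members. Of the 63, 60 were found in the table and 40 had a mean count of 5 or more. Besides Dhrs3, 39 were tested after gamma rays, and 3 fell and 2 rose, where 7.65% of all genes tested were called. The 3 were Cyp26b1, Rarg and Rxra, and the 2 were Ncoa2 and Ep300. After protons 0 of 40 passed in edgeR, where 1.76% of all genes did, with 9 under an unadjusted p of 0.05 (13.3% of all genes) and 1, Dhrs3, called in DESeq2 (2.36% of all genes). The median slope over the 39 genes without Dhrs3 was 0.017 after gamma rays and -0.038 after protons, against 0.013 and 0.002 over all tested genes.

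Among the receptors, 2 of 6 fell after gamma rays, Rarg and Rxra, where 290 of 13124 genes tested fell. The median gamma slope of the 6 was -0.32 over all doses, -0.21 with the GC content and length correction, where Rxra alone was called, and -0.08 over 0 to 125 cGy, where 0 were called. Rxra encodes a retinoid X receptor, the partner with which retinoic acid receptors bind DNA. It had 829, 883, 799, 872, 716, 726, 751, 691, 536 and 593 counts in the gamma mice in order of dose. The 4 gamma mice at 0 to 25 cGy had 799 to 883 counts and the 5 at 75 to 200 cGy had 536 to 751. Proton mice of these doses overlapped, and how many of all genes were apart in this way was not counted. The gamma slope of Rxra was -0.31 (SE 0.06, edgeR adjusted p = 0.0122). It was -0.25 with the GC content and length correction (edgeR adjusted p = 0.0218) and -0.28 over 0 to 125 cGy (edgeR adjusted p = 0.43). The proton counts ranged from 583 to 839 and their slope was -0.16 (edgeR adjusted p = 0.239).

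Among the 7 receptor cofactors reported, 2 rose after gamma rays, where 714 of 13124 genes tested rose. The 2 were the coactivators Ncoa2 and Ep300, with slopes over all doses of 0.32 and 0.25 (edgeR adjusted p = 0.091 and 0.0981). Both calls were near the threshold, and leaving out 1 mouse at a time lost that of Ncoa2 in 11 of 20 fits and that of Ep300 in 14 of 20, where the slope of Ep300 came to 0.12 without the gamma mouse at 200 cGy. Ncoa2 had 244 to 304 counts in the 8 gamma mice up to 125 cGy and 446 and 423 at 150 and 200 cGy, and Ep300 had 340 to 419 and then 542 and 612. Over 0 to 125 cGy their slopes turned to -0.09 and -0.11 (edgeR adjusted p = 0.98 and 0.959), and with the GC content and length correction they were 0.15 and 0.09 (adjusted p = 0.397 and 0.544). Their GC contents were 48.0% and 48.9%, against 57.0% in Rxra. Of the 7 cofactors, 7 had a slope above 0 over all doses and 0 over 0 to 125 cGy, in both series. The median slope of all tested genes was 0.013 after gamma rays and 0.002 after protons, and -0.002 and 0.030 over 0 to 125 cGy. How many of all genes had a slope above 0 was not counted. Ncoa3 and Ncor1, the most abundant by count, had gamma slopes of 0.06 and 0.22 without passing the test (edgeR adjusted p = 0.841 and 0.111).

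**Figure D5:**
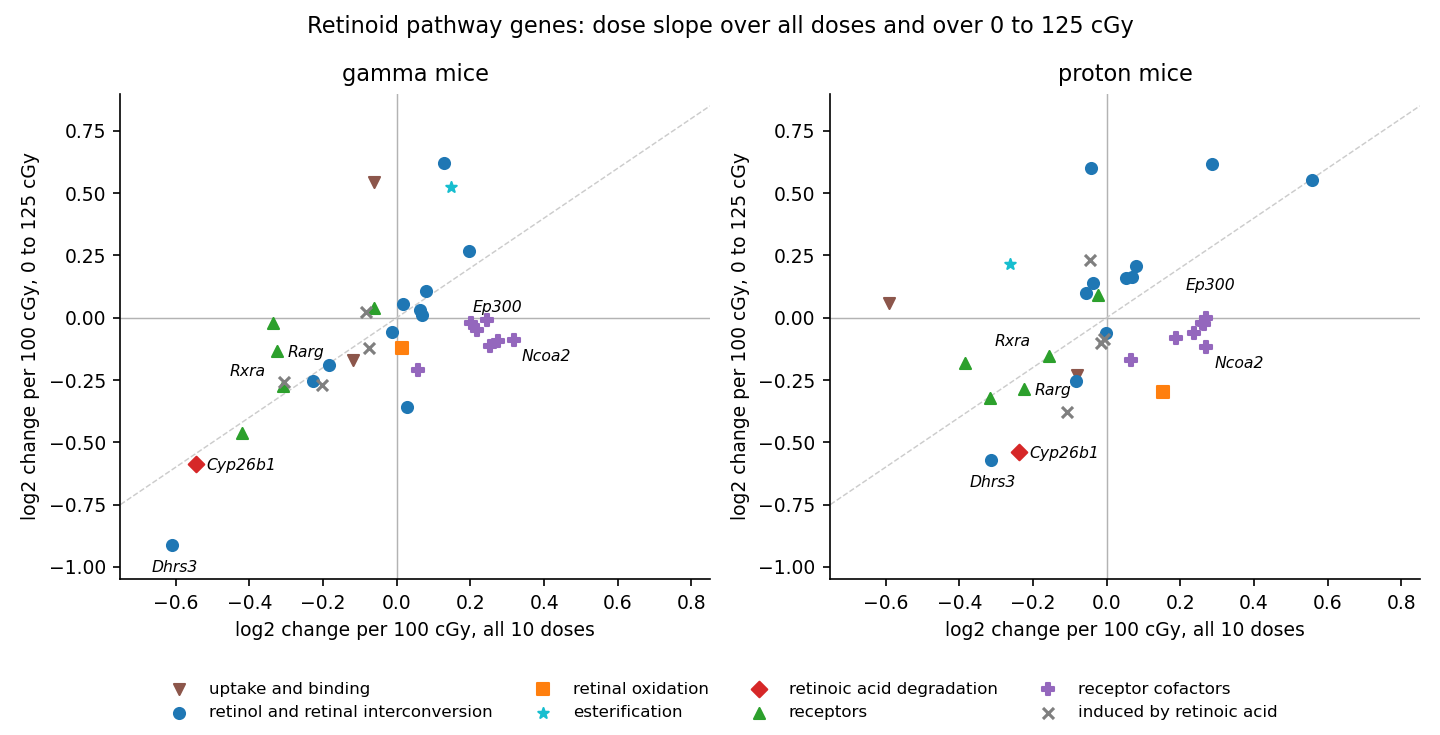
Log2 change per 100 cGy over all doses (x axes) against that over 0 to 125 cGy (y axes) for the 32 retinoid pathway genes of mean count 50 or more, in gamma mice (left) and proton mice (right), coloured by role, with a gene of several roles drawn under the first in the legend order and a dashed line where both slopes are equal. Dhrs3, Cyp26b1 and Rxra lie near or under the dashed line on the negative side in the gamma mice, whereas Ncoa2 and Ep300 are above 0 on the x axis and under 0 on the y axis.

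No further gene of the remaining roles passed the test after either radiation type. Of 11 uptake and binding genes reported 2 were tested, and the retinol carrier Rbp4 and the fatty acid binding protein Fabp5 had gamma slopes of -0.12 and -0.06 (edgeR adjusted p = 0.511 and 0.97). Of the 21 genes that interconvert retinol and retinal, 13 were fitted. Apart from Dhrs3 none of them was called, and Adh5, the most abundant after Dhrs3 by count, had slopes of 0.07 and 0.05 (adjusted p = 0.765 and 0.884). Of 5 genes of retinal oxidation 4 were tested, and Aldh1a7, second to Aldh1a1 by count, ranged from 9 to 309 counts. The esterifying enzymes Dgat1 and Lrat had mean counts of 217.7 and 0.05, and Cyp26a1, the close relative of Cyp26b1, had a mean count of 0.25. Of 15 genes known to be induced by retinoic acid 10 were fitted, and of the 9 without Dhrs3, 8 had a slope under 0 after gamma rays and 8 after protons. These were 7 and 6 over 0 to 125 cGy, and with the GC content and length correction 8 and 6. The median slopes of the 9 over all doses were -0.08 and -0.09, against 0.013 and 0.002 over all tested genes. How many of all genes had a slope under 0 was not counted. After gamma rays only Cyp26b1 was called among the 9, where 290 of 13124 genes tested fell. The most abundant of this list was Tgm2, a transglutaminase, with a mean count of 7700 and a gamma slope of -0.20 (edgeR adjusted p = 0.335).

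Over the 20 mice, and among 8016 genes of mean count 100 or more, the log2 CPM most like that of Dhrs3 was that of Cdh3, the P-cadherin gene (Pearson r 0.873). Rhobtb2 (0.862), Wisp2 (0.825), Itpkb (0.819) and Atp6v0a1 (0.810) came next. Over the 16 mice at 0 to 125 cGy, Cdh3 and Rhobtb2 stayed among the first 5. Of the members, Cyp26b1 had the highest r with Dhrs3, 0.769, then Rarg with 0.616, Rarb with 0.486, Rara with 0.416 and Rdh10 with 0.328. Aldh1a1 and Aldh1a2 had 0.064 and -0.007. These values describe mice that share doses and library properties.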

How the data were processed

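RNA of the aorta was sequenced from 20 mice, 10 per radiation type and 1 per dose. The authors selected polyA RNA, aligned paired, stranded reads of 100 bases to mm9 with STAR 2.5.2a, resampled the libraries to a common depth with PORT, and deposited sense read counts per gene, which are whole numbers taken after that resampling. The submitters' processing notes also name CASAVA 1.8.1. Resampling brings the libraries to nearly equal totals, so depth does not differ between doses, at the cost of discarded reads. Gene positions are from GENCODE M1, of the same build, and GC content from its protein-coding transcripts.

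Genes reaching a mean count of 5 were tested in edgeR 4.0.16 (R 4.3.3) by its robust quasi-likelihood test after TMM normalization. The model gave each radiation type its own intercept and log2 slope on dose and shared 1 estimate of the spread. A second model compared the types with dose as a block, and the slopes were also fitted to the 16 mice at 0 to 125 cGy. Rank trends were tested by an exact two-sided permutation test over all orders of the doses. Benjamini-Hochberg adjustment ran over all tested genes, with a threshold of 0.1, and intervals are 95%. Correlations with Dhrs3 used log2 CPM. RPKM used the total exon length of a gene.

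The members and lists were chosen with earlier results of these data known. All members are named, and of the pathway lists the genes that passed the edgeR test and the 2 most abundant by count of each role, with Cdkn1a and Mdm2 as a check of the labels. Of 63 pathway symbols, 3 were not matched, and 2 further genes of the lists are not reported here, so that all list counts are without them. The alternatives were DESeq2 1.42.0, no TMM, minimum mean counts of 1 and 50, dose as a rank or as log2(dose + 1), marker covariates, the GC content and length correction, other doses, and leaving out each mouse or pair. Floors and intervals on counts cover counting error only, since PCR copies were not told from separate molecules. The tests were tried on simulated data. Antisense reads and introns were not analysed here.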

Additional observations from a re-analysis of the deposited data

Results flagged for a closer look

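In 5 of 26 series of 10 mice, 1 count lay far from the others. Its gap to its neighbour was beyond Dixon's critical share of the whole range. Chance flags about 1 series in 20 only where values are normally distributed, which counts at or near 0 are not. How many series of all genes would be flagged was not counted, so the 5 flagged counts are a description with no test. In the proton series these were the 51 counts of Aldh1a2 at 75 cGy (next 7), the 207 counts of Rara at 5 cGy (next 134), the 216 counts of Rarb at 0 cGy (next 140) and the 323 counts of Cyp26b1 at 0 cGy (next 184). In the gamma series it was the 3 counts of Stra6 at 75 cGy (next 1), at the floor of the depth. The Rarb and Cyp26b1 counts belong to the same unirradiated proton mouse.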

How the results depend on the processing

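The number of members called after gamma rays beside Dhrs3 was 2, and it became 1 with dose as a rank and 0 with log2 dose, with the GC content and length correction and over 0 to 125 cGy. Of all genes, 3.66%, 0.343%, 2.54% and 0.259% were called under these settings, against 7.65%. Leaving out a mouse gave 0 to 2. The gamma pathway genes called were 5, and 3 at a minimum mean count of 1, 2 with dose as a rank, 1 with the correction and 0 with log2 dose or over 0 to 125 cGy, with 1 to 7 when a mouse was left out. After protons the 0 members called became 1, Dhrs3, in DESeq2, without TMM, at a minimum mean count of 50, and with a brown or white fat covariate, and ranged from 0 to 1 when a mouse was left out. For the pathway the same settings gave 1, and leaving out a mouse gave 0 to 2. Over 0 to 125 cGy the proton count of 0 became 1 in DESeq2 and ranged from 0 to 1 without single mice. Of the 5 genes most like Dhrs3, 2 were shared at 0 to 125 cGy, 2 in gamma mice alone and 1 in proton mice alone.

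The slopes that changed sign were all outside the test under that setting. Aldh1a1 after gamma rays was -1.1e-04 at a minimum mean count of 1, -0.009 with dose as a rank, -0.024 with log2 dose, -0.006 with the brown fat and -0.157 with the endothelium covariate, -0.027 with the correction and -0.122 over 0 to 125 cGy, and -0.396 to 0.160 without single mice. After protons it was -0.011 with the endothelium covariate, -0.297 over 0 to 125 cGy, and -0.247 to 0.217 without single mice. Aldh1a2 after gamma rays was 0.044 with log2 dose and 0.061 over 0 to 125 cGy, and -0.702 to 0.581 without single mice. After protons it was 0.083 with log2 dose, 0.235 and 0.371 with the brown and white fat covariates, 0.845 over 0 to 125 cGy, and -0.358 to 0.200 without single mice. Rara over 0 to 125 cGy of gamma rays was 0.023 without TMM and 0.010 with the correction, and -0.199 to 0.222 without single mice, and after protons -0.340 to 0.201. The slope difference of Cyp26b1 was -0.011 with log2 dose. Ncoa2 and Ep300 after gamma rays were -0.091 and -0.112 over 0 to 125 cGy. The cause of these changes was not tested.

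The proton slope of Dhrs3 was below 0 under every alternative run. Its gamma slope, whose sign was set by the choice of the gene, lay between -0.693 and -0.539 when a mouse was left out. Each dose had 1 mouse per type, so the spread of a dose is unknown, and Aldh1a2 and Stra6 are limited by depth. The endothelium covariate, and over 0 to 125 cGy the correction and the leaving out of mice, were chosen after the data were seen. By replicate number no paired analysis was possible, because the radiation types shared none. Mice of equal dose were paired instead, and with this block the slope difference called 0 members, as without it.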
